A study of Mus musculus with 3 samples.

Results

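Glutathione S-transferases join the tripeptide glutathione to reactive, mostly fat-soluble molecules, which can then be carried out of the cell. The cytosolic enzymes fall into classes such as alpha, mu, pi, theta and omega, and a separate membrane-bound branch includes Mgst1. In rodent liver, the alpha and mu classes are textbook targets of NRF2, a factor that binds antioxidant response elements, and of receptors for foreign compounds. The genes described here were Gsta1, Gsta2, Gsta3 and Gsta4 of the alpha class, Gstm1 and Gstm2 of the mu class, Gstp1 (pi), Gstt1 (theta), Gsto1 (omega) and the microsomal Mgst1. All probes that carry one of these symbols, either in the array annotation or as the current symbol of their accession, were taken, which gave 16 probes in 25 spots for the 10 genes, of 55126 probes with a value on every array and 35451 gene names. These genes were chosen by their measured ratios of treated to control cells, so those ratios are given as a description.

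Mouse embryonic fibroblasts (MEF), connective tissue cells in primary culture, came from C57BL/6 embryos without the heads, legs and internal organs. The cells were cultured without n-butylidenephthalide (BP), a phthalide from the herb Angelica sinensis, with 10 µg/ml BP (BP10) or with 40 µg/ml BP (BP40). The control carries no treatment in the sample labels and is described as DMSO, the solvent of BP, in the text of the study, and the duration of BP exposure is not given in the sources used here. The question addressed was which genes change their RNA level in MEF at each BP concentration, by total RNA labeled with Cy3 on an Agilent mouse 1-colour array, with 1 array per condition and 3 in all. With no replicate culture, no p-value or SD between cultures can be given, and each ratio compares 2 arrays.

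On the 3 arrays 68.3% to 81.7% of the 59305 gene spots were well above background, and the control array had the largest share. Both BP arrays were scanned in 1 session and the control array in another, so against the control an effect of BP and one of the scan cannot be told apart. Signals below are intensities divided by the 75th percentile of the same array, and a log2 ratio is the difference between 2 arrays for the same probe. A gene was called at a ratio of 2-fold or more, if its probe was well above background on either array. Of the genes called against the control, 20.2% were higher at BP10 and 21.7% at BP40. With quantile normalization these shares were 59.3% and 59.4%, after subtraction of the median ratio of genes of like brightness 56.3% and 52.6%, and with normexp background correction 33.0% and 46.3%. With the E1A spike-in control probes set equal they were 33.2% and 1.28%. In BP40 against BP10 51.4% of the called genes were higher, and 1.05% with E1A scaling. All 10 fibroblast markers examined, among them Col1a1 and Vim, were well above background on every array, with a summed scaled signal of 1468 on control, 1074 on BP10 and 1168 on BP40 and median log2 ratios against control of -0.58 (BP10) and -0.54 (BP40). Of 10 hepatocyte markers, 8 were well above background on control, 5 on BP10 and 6 on BP40, with summed signals of 1.14, 0.675 and 0.854, and Alb and Ttr were so on no array. All 8 macrophage markers were also well above background on every array, with a summed scaled signal of 35.3 on control, 29.2 on BP10 and 32.8 on BP40. This was not particular to macrophage markers. On control, 6 of 6 skeletal muscle, 6 of 6 adipocyte, 5 of 7 epithelial and 4 of 6 endothelial markers were well above background. Their summed signals there were 15.6, 1.31, 5.84 and 8.40. The part of all these lists in the ratios was not tested.

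All 16 probes were well above background on all arrays, so no ratio of these genes is a bound. The plots of signal and of ratio show each probe.

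**Figure D1:**
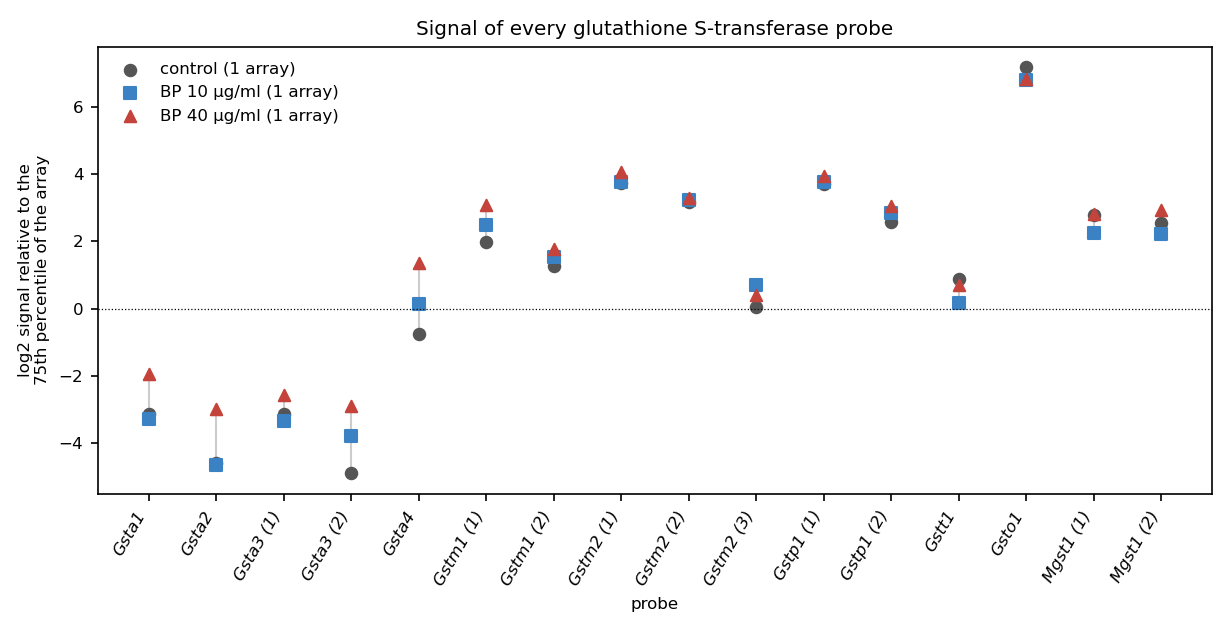
Log2 signal relative to the 75th percentile of the array (vertical axis) for each of the 16 probes (horizontal axis), with 1 point per array for control, BP10 and BP40; the probe numbered 1 is the one used for its gene. Heights are compared within a probe and not between probes. BP40 lies above both other arrays at most probes, among them the 5 alpha class probes. With E1A scaling both Gsta3 probes and all probes outside the alpha class lie lower on BP40 than on BP10.

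The 40 µg/ml array showed higher signal than the control on all 5 alpha class probes, although the probe used for Gsta3 turned lower with E1A scaling, at a log2 ratio of -0.23. Of all 16 probes, 14 were above the control on BP40 and 15 were above BP10, so this direction was not particular to the alpha class. Gsta4, Gsta2 and Gsta1 were 4.29-fold, 3.05-fold and 2.29-fold above the control array. On the BP10 array, Gsta4 was 1.83-fold above the control, and Gsta1 and Gsta2 were within 10% of it.

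Gsta4 conjugates hydroxynonenal and related aldehydes that arise when membrane lipids are oxidized. Its probe maps to chr9:78046172-78047344 on the plus strand of mm9, the build of the array files. The 60 bases of the probe cover 1173 bases of the genome, as a probe across an intron does. It is shown in full because it carried the widest BP40 to control ratio of the 10 genes and was printed in 10 spots.

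Gsta4 probe: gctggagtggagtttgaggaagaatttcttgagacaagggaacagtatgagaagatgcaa

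The processed intensity of the 10 spots ran from 906 to 1166 on the control array, with a median of 1050. It ran from 1314 to 1696 on BP10, with a median of 1534. It ran from 2579 to 3394 on BP40, with a median of 3153. The 3 sets of spots did not overlap, before scaling or on the 75th percentile scale. With E1A scaling the lowest BP40 spot fell below the highest BP10 spot. Spots of 1 array share a culture and an RNA and are no replicates of a condition. Relative to the 75th percentile, the mean signal was 0.595 on control, 1.09 on BP10 and 2.55 on BP40. The log2 ratio was 0.87 for BP10 against control, 2.10 for BP40 against control and 1.23 for BP40 against BP10. With E1A scaling these were 1.02, 1.31 and 0.29, so that Gsta4 was called at both doses against control and not between the doses. The SD of log2 signal over the 10 spots was 0.12 on the control, 0.12 on BP10 and 0.11 on BP40, and each step between arrays on the 75th percentile scale was wider than this spread.

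**Figure D2:**
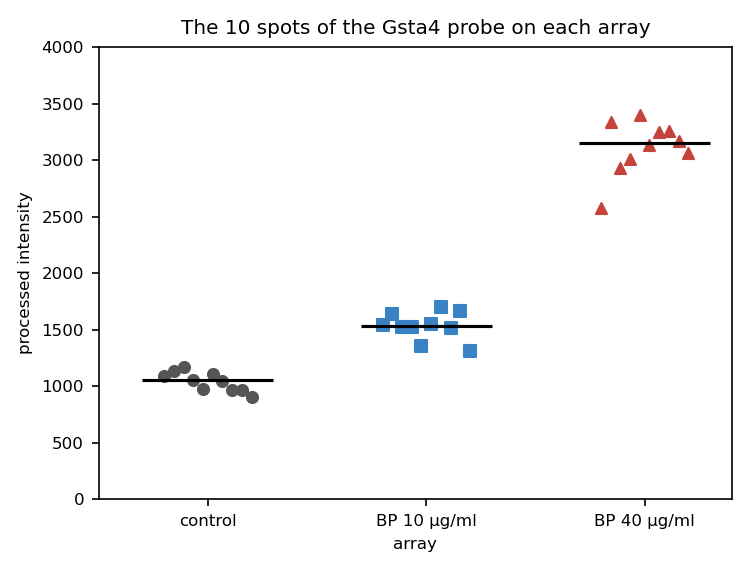
Processed intensity (vertical axis, from 0) of the 10 spots of the Gsta4 probe on each array (horizontal axis), with a bar at the median. The spots reached 1166 on control, lay between 1314 and 1696 on BP10 and began at 2579 on BP40.

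Gsta1 and Gsta2 are closely related alpha class subunits known from liver and other tissues, and their probes were not fully separate measurements. The Gsta1 probe (chr9:78090411-78090470, plus strand, mm9) and the Gsta2 probe (chr9:78178856-78178915, minus strand, mm9) overlap in sequence over 50 bases, of which 46 are identical. The Gsta1 probe is identical over all 60 bases to a probe for a forward transcript that the array design names only by its position (probe at chr9:78116894-78116953). The probe of Gm10639, a predicted gene between them (chr9:78153243-78153302), can be turned into the Gsta2 probe by 3 single-base changes, insertions or deletions. The Gsta1 and Gm10639 probes, set side by side without gaps, are identical at 41 of 50 overlapping bases. A stretch of 30 bases that the 4 probes share is printed, with capitals at the positions where they differ. Outside this stretch some of the probes differ further.

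Gsta1: ctggcctctaatGgtttgcaattataaaaA

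Forward transcript: ctggcctctaatGgtttgcaattataaaaA

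Gm10639: ctggcctctaatGgtttgcaattataaaaT

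Gsta2: ctggcctctaatTgtttgcaattataaaaT

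Signal of one of these genes could therefore be read by the probe of another, and the files do not separate them. The scaled signal of the Gsta1 probe was 0.114 on control, 0.103 on BP10 and 0.261 on BP40. That of the Gsta2 probe was 0.0416 on control, 0.0395 on BP10 and 0.127 on BP40. On both probes BP10 was within 10% of the control on this scale and BP40 was higher than both. With quantile normalization the BP10 to control log2 ratio was 0.21 for Gsta1 and 0.52 for Gsta2, and with the median at like brightness subtracted 0.25 and 0.58. For Gsta1 the log2 ratio was -0.14 for BP10 against control, 1.20 for BP40 against control and 1.34 for BP40 against BP10. For Gsta2 the log2 ratio was -0.07 for BP10 against control, 1.61 for BP40 against control and 1.68 for BP40 against BP10. The scanner software's own error of these log2 ratios was 0.21 to 0.35, which covers the spot and not the culture. With normexp background correction the BP40 to control log2 ratio of Gsta1 was 0.99, just short of 2-fold. With E1A scaling it was 0.41, and that of Gsta2 was 0.82.

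Gsta3, an alpha class member known for its activity on aflatoxin epoxide in the mouse, had 2 probes on chromosome 1 that disagreed. The probe used for the gene (chr1:21255043-21255102, mm9) gave a scaled signal of 0.115 on control, 0.0977 on BP10 and 0.169 on BP40. The other probe (chr1:21255189-21255248, mm9) gave 0.0334 on control, 0.0727 on BP10 and 0.135 on BP40. The log2 ratio of BP10 against control was -0.23 on the first and 1.12 on the second, and that of BP40 against control 0.56 and 2.02. The distance between them can be set beside other genes: over 3740 genes with 2 probes, the median SD between the log2 ratios of both probes was 0.27 at the lower and 0.19 at the higher dose against control. Between BP40 and BP10 the probes were close, with log2 ratios of 0.79 and 0.90. These turned to -0.15 and -0.04 with E1A scaling. Had the median of both probes stood for the gene, Gsta3 would have been called higher in BP40 against control, at a log2 ratio of 1.29.

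The mu class conjugates epoxides and other electrophiles. Gstm1 was called higher in BP40 against control, on 1 of its 2 probes. The probe used gave a scaled signal of 3.96 on control, 5.66 on BP10 and 8.50 on BP40. Its log2 ratio was 0.52 for BP10 against control, 1.10 for BP40 against control and 0.59 for BP40 against BP10. With E1A scaling the call was lost, at 0.31 for BP40 against control, and BP40 against BP10 turned to -0.35. The array files place this probe on chr5:117082490-117082549 of mm9, whereas the second Gstm1 probe lies on chr3:107815595-107815654, on the chromosome where the RefSeq table places the Gstm1 promoter. On the second probe the scaled signal was 2.42, 2.88 and 3.39 on control, BP10 and BP40, with a BP40 to control log2 ratio of 0.49. That probe did not reach 2-fold, and with E1A scaling its BP40 to control log2 ratio was -0.30. Gstm2 had 3 probes on chromosome 3 and none reached 2-fold. The BP40 to control log2 ratio was 0.33 on the probe used, and 0.11 and 0.37 on the others, and their BP10 to control log2 ratios ran from 0.04 to 0.67. All 3 of the BP40 to control values were below 0 with E1A scaling, and that of the probe used was -0.10 with the control array divided by its own detrending surface. The probe at 0.11 gave -0.01 without detrending and -0.04 with normexp.

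The first probe of Gstm1 and the first of Gstm2, together with that of Gstt1, hold AATAAA, the usual polyadenylation signal of messenger RNA. The motif, on the strand of the probe, was present in 3 of the 16 probes and in 10.1% of all gene probes. The stretches around it, with AATAAA in capitals, show that the mu class probes named Gstm1 and Gstm2 read different sequence.

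Gstm1: tgtctcatctacAATAAAgtctgaaacaca

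Gstm2: cccatttggttctcAATAAAgtgtgaatca

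Gstt1: ttgagtctgggtAATAAActggggcttgat

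None of the remaining 4 genes reached 2-fold on the 75th percentile scale, while Gsto1 was called lower in BP40 against control with E1A scaling and Gstt1 lower in BP10 against control at a 1.5-fold threshold. Gstp1, the pi class enzyme found in many tissues, gave a scaled signal of 13.1 on control, 13.6 on BP10 and 15.3 on BP40, and its BP40 to control log2 ratio was 0.23 on this probe and 0.49 on the other, or -0.56 and -0.30 with E1A scaling. Gsto1, which also reduces dehydroascorbate, gave 145.0 on control, 111.0 on BP10 and 114.1 on BP40. It was lower on both BP arrays, with log2 ratios of -0.39 and -0.35, and a log2 ratio of 0.04 between them. With E1A scaling its log2 ratio was -1.14 for BP40 against control and -0.90 for BP40 against BP10, and with quantile normalization the latter was -0.27.

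Gstt1 and Mgst1 had their lowest signal on the BP10 array. Gstt1, of the theta class, which acts on small halogenated compounds, gave a scaled signal of 1.86 on control, 1.11 on BP10 and 1.63 on BP40. Its log2 ratio was -0.73 at BP10 and -0.19 at BP40 against control. Mgst1, a membrane enzyme with transferase and peroxidase activity, gave 6.95 on control, 4.75 on BP10 and 6.97 on BP40. Its log2 ratio was -0.55 at BP10 and 0.00 at BP40 against control on the probe used, and -0.32 and 0.37 on the other. In BP40 against BP10 the log2 ratio was 0.55 for Gstt1 and 0.55 and 0.69 for the Mgst1 probes, and with E1A scaling all 3 were below 0.

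**Figure D3:**
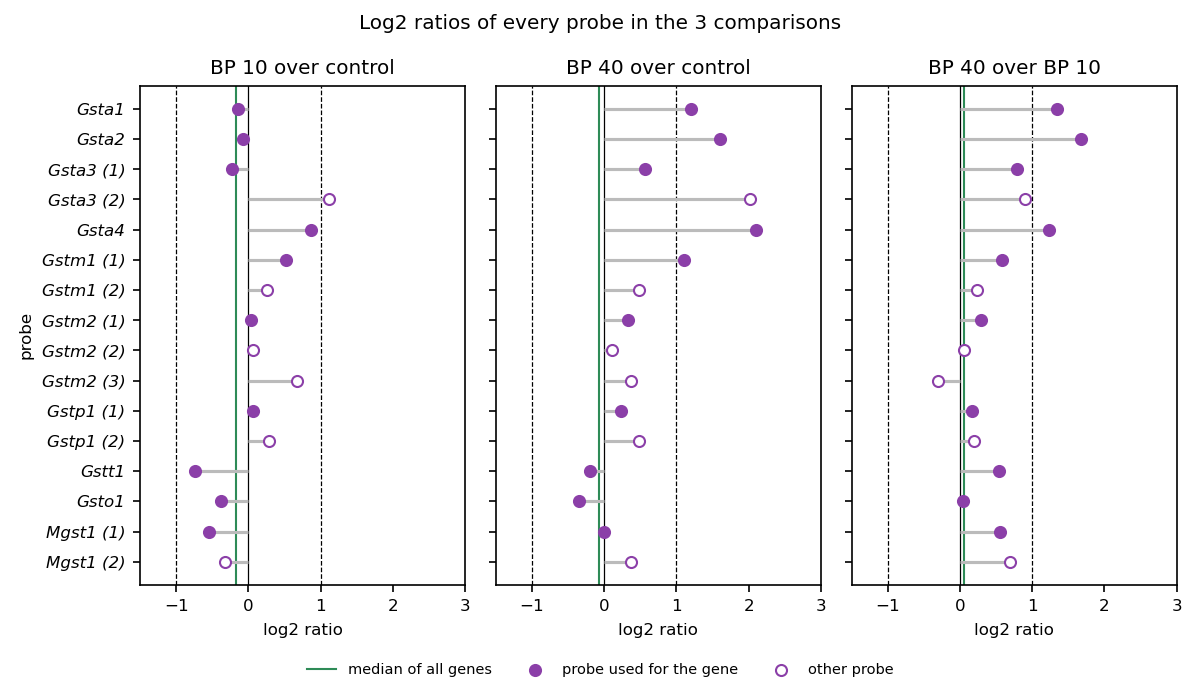
Log2 ratio (horizontal axis) of each of the 16 probes (vertical axis) for BP10 over control, BP40 over control and BP40 over BP10, 1 array each; dashed lines mark 2-fold and the green line the median of all genes (-0.17, -0.07 and 0.06). Filled points are the probes used for the genes. Beyond the 2-fold lines lie Gsta1, Gsta2, Gsta4 and Gstm1 among the filled points for BP40 over control, all on the higher side. With E1A scaling the genes beyond 2-fold in that comparison are Gsta4, higher, and Gsto1, lower.

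Counted over the 10 genes, none was called higher in BP10 against control, where 2.60% of all genes were called higher, and none lower, where 10.3% were. In BP40 against control 4 of the 10 genes were called higher, where 2.50% of all genes were, and none lower, where 9.00% were. In BP40 against BP10 3 genes, Gsta1, Gsta2 and Gsta4, were called higher, where 1.88% of all genes were, and none lower, where 1.77% were. At a threshold of 1.5-fold, 1 gene was higher and 1 lower in BP10 against control, where 6.76% and 21.8% of all genes were. In BP40 against control 4 were then higher and none lower, beside 6.90% and 19.7%, and in BP40 against BP10 5 were higher and none lower, beside 7.81% and 5.53%. The genes were chosen with these ratios in view, so the counts are a description beside the background. Over the 10 genes the log2 ratio had a median of -0.11, 0.44 and 0.57 in the 3 comparisons, beside -0.17, -0.07 and 0.06 for all genes. With E1A scaling 1 gene, Gsta4, was called higher and 1, Gsto1, lower in BP40 against control, and 0 were called higher in BP40 against BP10. The medians of the 10 genes were then -0.35 for BP40 against control and -0.37 for BP40 against BP10, beside -0.86 and -0.87 for all genes.

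By class, the 4 alpha genes had a median BP40 to control log2 ratio of 1.40, with a range from 0.56 to 2.10, and the other 6 genes one of 0.12, with a range from -0.35 to 1.10, so Gstm1 lay within the alpha range. In BP10 against control the medians were -0.11 and -0.17. In BP40 against BP10, on arrays of the same scan session, the 4 alpha genes lay between 0.79 and 1.68 and the other 6 between 0.04 and 0.59. These sets of chosen genes did not overlap in this comparison, which was not tested. Among the other transferases listed below, Mgst2 (1.34) and Gstt3 (0.85) lay within the alpha range and the rest below it. All 10 genes were above 0 in that comparison, where 58.0% of all genes were. With E1A scaling 3 of the 10 were above 0, with subtraction of the median at like brightness 8, and with quantile normalization, or the percentile taken over probes above background on all arrays, 9. Brightness differed too, since the probes of Gsta1, Gsta2 and Gsta3 lay below the 75th percentile on average over the arrays. Among the 24502 genes below it the median BP40 to BP10 log2 ratio was 0.02, with 2.19% called higher, and the 3 genes had a median of 1.34. Among the 10949 genes at or above it the median was 0.15, and for the other 7 genes 0.55.

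Between the Gsta4 and Gsta2 probes on chromosome 9, the array holds 21 probes, both included. This window was chosen after its values were seen. In BP40 against control 8 of the 21 were called higher and none lower, where 2.50% of all genes were called higher and 9.00% lower. In BP40 against BP10 7 were called higher, where 1.88% were, and 1 lower, where 1.77% were. These shares count gene names with 1 probe each, while the window is counted in probes, some of them alike in sequence. These higher probes included those of the 3 genes described above. The probe called lower, on the minus strand, was well above background on the BP10 array alone, and was at least 5.93-fold higher there than on control. It was the 1 probe called in BP10 against control, where 2.60% of all genes were called higher and 10.3% lower. The values that follow are of the 11 probes well above background on all arrays. On the plus strand, 5 of the 6 probes for other names were called higher in BP40 against control, with log2 ratios of 1.91, 1.99, 1.44 and 1.02 for position-named forward transcripts and 1.97 for Gm10639. In BP10 against control the same 5 gave 0.81, 0.38, 0.08, 0.84 and 0.42. On the minus strand neither of the 2 probes for other names was called, and they had BP40 to control log2 ratios of -0.64 and -0.79. The sixth plus-strand probe, named Dppa5b, gave 0.59. Since the Gsta1 probe and one of these forward probes are identical, the number of separate transcripts behind these values cannot be told from the array. E1A scaling lowered every BP40 to control log2 ratio by 0.79. The Gsta1 and Gsta2 probes then fell to 0.41 and 0.82, and the forward probes at 1.44 and 1.02 also fell short of 2-fold. Both minus-strand probes for other names were then more than 2-fold lower. The highest BP40 to BP10 log2 ratio of the window, that of Gsta2, became 0.75, so no probe was then called higher.

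**Figure D4:**
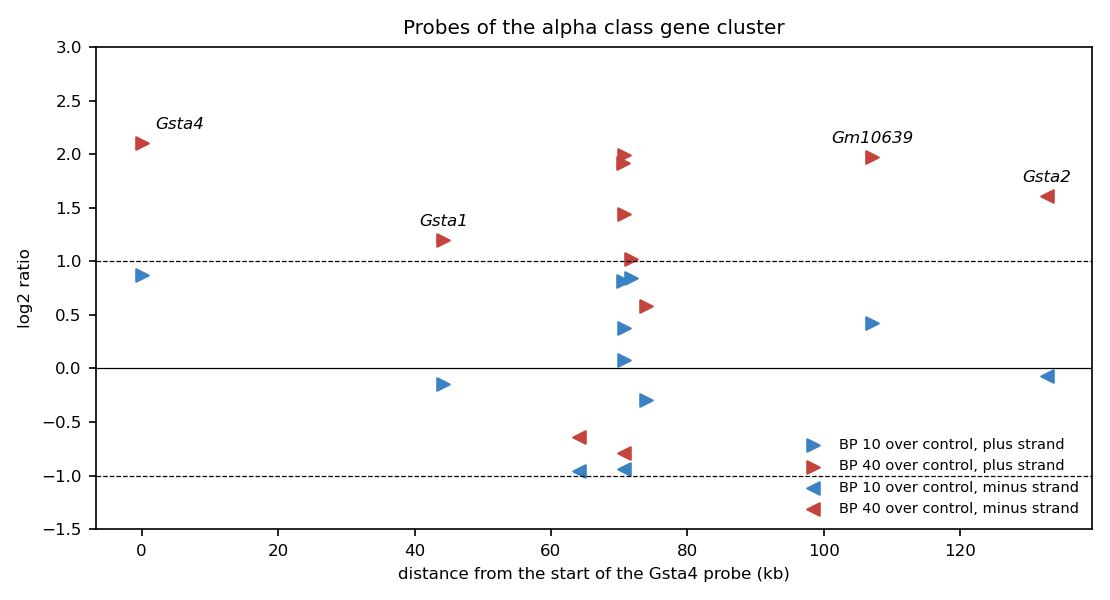
Log2 ratio (vertical axis) of the 11 probes well above background on all arrays, by distance in kb from the start of the Gsta4 probe (horizontal axis), for BP10 (blue) and BP40 (red) over control; the triangle points right for the plus and left for the minus strand. Of the red points, 8 lie past the 2-fold line at 1, and both minus-strand probes other than Gsta2 lie below 0. E1A scaling puts every red point 0.79 lower.

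Other transferases and related membrane enzymes were counted from a list, of which 20 of 22 names were on the array. In BP10 against control none was called higher and 1 lower, in BP40 against control 1 higher and 1 lower, and in BP40 against BP10 1 higher and none lower. Of all genes, 2.60% were called higher and 10.3% lower, 2.50% and 9.00%, and 1.88% and 1.77% in these comparisons. Counts of 1 in 20 are near these shares. The median log2 ratio of the 20 was -0.10, 0.11 and 0.23. Gstp3, a pi class relative, had log2 ratios of -1.30 for BP10 and -1.60 for BP40 against control. Mgst2, a microsomal enzyme that also makes leukotriene C, was called between the doses, with log2 ratios of -0.64 for BP10 against control, 0.70 for BP40 against control and 1.34 for BP40 against BP10. Gstm7 just reached 2-fold in BP40 against control on 1 probe, and gave 0.09 on the other. E1A scaling removed the higher calls of Gstm7 and Mgst2, and further names of the list were then called lower in BP40 against control.

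Of 17 genes of glutathione supply and export, 1 was called, which was Gclm, higher in BP40 against control, where 2.50% of all genes were. A count of 1 in 17 is near that share. Gclm encodes the modifier subunit of glutamate-cysteine ligase, the first enzyme of glutathione synthesis, and gave log2 ratios of 0.77 for BP10 and 1.12 for BP40 against control. The catalytic subunit Gclc gave 0.57 and 0.84, below 2-fold. Gsr, which restores glutathione from its disulfide, gave -0.27 and 0.51. The list had a median of 0.09 and 0.11 against control and 0.18 between the doses, beside -0.17, -0.07 and 0.06 for all genes.

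Of 11 regulators, 2 were called lower at both doses and none higher, beside 10.3% and 9.00% of all genes called lower, and 14.1% and 12.6% of genes below the 75th percentile, where both lie. A count of 2 in 11 is near these shares. Nfe2l2, which encodes NRF2, gave log2 ratios of -0.41 for BP10 and -0.08 for BP40 against control, and Keap1, its inhibitor, 0.05 and 0.02. The nuclear receptors for foreign compounds were the called pair. Nr1i2 gave -1.48 for BP10 and -1.01 for BP40 against control. Nr1i3 gave -1.21 for BP40 and was at least 1.51 lower on the log2 scale for BP10, where it was not well above background.

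**Figure D5:**
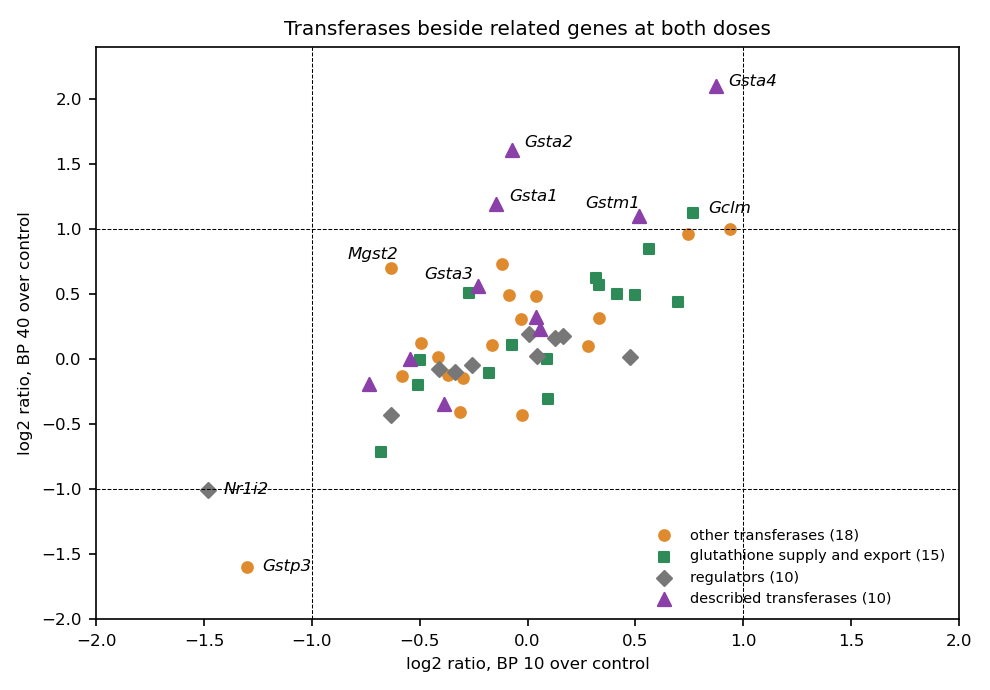
Log2 ratio of BP10 over control (horizontal axis) against BP40 over control (vertical axis), 1 array each, for the 10 transferases described and for the genes of the 3 lists that were well above background on all arrays; dashed lines mark 2-fold. Both axes share the control array. Gsta4, Gsta2, Gsta1 and Gstm1 lie above the upper line, with Gclm at 1.12. E1A scaling lowers BP40 over control by 0.79 for every gene, and of these Gsta4 alone then stays above the line.

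Likeness to Gsta4 was measured as the distance between the pairs of log2 ratios against control, over the 3 arrays and 25032 gene names well above background on all of them. The 5 nearest lay at distances of 0.18 to 0.23. They were Gdf15, a stress-induced secreted factor, with log2 ratios of 0.73 and 1.91, Rn18s, a ribosomal RNA, with 0.78 and 1.90, and 3 position-named forward transcripts. One of these 3 lies in the alpha class window, with 0.81 and 1.91.

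Promoter sequence was available from RefSeq (GRCm38.p6) for 9 of the 10 genes, in 11 windows of 250 bases before to 50 bases after a transcript start; Gsta4 was not in the table. The core of the antioxidant response element, TGACNNNGC, was searched on both strands. It was present for Gsta3 and Mgst1, and in 12.4% of 32851 promoters. The core of the element of AHR, a receptor for foreign compounds, GCGTG, was present for Gsta1, Gsta2, Gstm1 and Gstp1, and in 32.4% of promoters. These are matches of letters in one window each, at a share that many promoters also reach. The stretches that hold a match are printed for the alpha class, with the match in capitals, because this class carried the higher BP40 signal.

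Gsta3, chr1:21240444-21240492, plus strand: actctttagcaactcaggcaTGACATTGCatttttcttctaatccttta

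Gsta1, chr9:78230647-78230671, plus strand: attgtcaccttactaaaggaGCGTG

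Gsta2, chr9:78347146-78347172, minus strand: attgttgccttactaaagtaGCGTGca

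The first base of the core lay 2 bases before the transcript start of Gsta1 and 7 before that of Gsta2, and the stretches end at or near the start. Both probes gave BP10 to control log2 ratios near 0 and BP40 to control log2 ratios of 1.20 and 1.61, and the other genes with this core gave 1.10 (Gstm1) and 0.23 (Gstp1). On the probes used, the searched genes without this core gave 0.56 (Gsta3), 0.33 (Gstm2), 0.00 (Mgst1), -0.19 (Gstt1) and -0.35 (Gsto1). These values depend on the probe. Among genes with the core, the other probe of Gstm1 gave 0.49 and that of Gstp1 0.49. Among genes without it, the other probe of Gsta3 gave 2.02, those of Gstm2 0.11 and 0.37, and that of Mgst1 0.37. A link between the core and these ratios was not tested.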

How the data were processed

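Total RNA of MEF was hybridized to 3 Agilent arrays, 1 per condition. The authors deposited the scanner output of Feature Extraction 10.5.1.1 (array positions on mm9), whose processed intensity per spot was background-corrected and not scaled between arrays. The deposited detrending ratio per spot was applied to the processed intensity of both BP arrays (0.904 to 1.46 of the background-subtracted signal) and not to that of the control. Deposited flags and scanner errors are the software's own. The series table deposited beside it gives equal intensity values for 100% of spots (relative tolerance 0.0001). For the arrays the study's text names GeneSpring GX, Babelomics and KEGG, and the rule for a deregulated gene is not given in the sources used here. All value columns were mapped to a sample.

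From these, log2 processed intensity was taken relative to each array's 75th percentile (gene spots without an outlier flag), and spots of a probe were averaged. A gene was represented by its probe well above background on most arrays, then the brightest. Of 55681 gene probes, 26425 (47.5%) were named by the RefSeq symbol of their accession and the rest by the array annotation. Where a probe was dim on 1 array, its ratio is a bound, set against its own signal or the dimmest signal still well above background there, whichever is higher.

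The 10 genes and the lists of related genes were chosen with earlier results of these data known. Every probe of the 10 genes is shown. Of the other lists, the genes named are those called, together with Gstt3, Gclc, Gclm, Gsr, Nfe2l2 and Keap1. Genes like Gsta4 are the 5 nearest. The window around the alpha class genes and the detrending alternatives were chosen after values were seen. The number of arrays limits the precision, and no test was run. The call rule was run on simulated arrays whose known changes were all larger than 2-fold, with small even noise. That run held no shift between scans or scalings, so it cannot show how firm the calls here are. Python 3.11.15, numpy 2.4.6 (quantile normalization), pandas 2.3.3, matplotlib 3.10.9 and R 4.3.3 with limma 3.58.1 (normexp, offset 50) were used. Exon and UTR annotation on mm9, and protein sequences, were not used here.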

Additional observations from a re-analysis of the deposited data

Results flagged for a closer look

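The 2 doses moved opposite ways against the control on the probe used for 4 genes, each with 1 array per dose, and the difference was not tested. The log2 ratio was -0.14 for BP10 and 1.20 for BP40 in Gsta1, -0.074 and 1.61 in Gsta2, -0.23 and 0.56 in Gsta3, and -0.55 and 0.0042 in Mgst1. The opposite sign rests on small values on 1 side. It was not seen on the forward transcript probe identical to the Gsta1 probe, which gave 0.08 and 1.44. Nor was it seen on the other Gsta3 probe, which gave 1.12 and 2.02, while the other Mgst1 probe kept it, at -0.32 and 0.37. With quantile normalization the BP10 value was 0.21 for Gsta1, 0.52 for Gsta2 and 0.13 for Gsta3, so both doses were then above the control, and the BP40 value of Mgst1 was -0.04, so both doses were then below it.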

How the results depend on the processing

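No paired analysis was possible because there was a single array for each condition. At a threshold of 1.5-fold, 1 gene was called higher (Gsta4) and 1 lower (Gstt1) in BP10 against control, and 5 were called higher in BP40 against BP10, with Gsta3 and Gstm1 added. At 3-fold, 2 were called higher in BP40 against control (Gsta2 and Gsta4) and 1 in BP40 against BP10 (Gsta2). With the E1A control probes set equal, 1 gene was called higher in BP10 against control (Gsta4), 1 higher (Gsta4) and 1 lower (Gsto1) in BP40 against control, and 0 higher in BP40 against BP10, and the median of the 10 genes was -0.35 for BP40 against control and -0.37 for BP40 against BP10; this scaling shifts all genes, whose medians were -0.86 and -0.87. After subtraction of the median at like brightness, the median for BP10 against control was 0.17. The cause of these moves was not tested, other than the thresholds' own. With normexp, Gsta1 was lost in BP40 against control and Gsta2 in BP40 against BP10, and the median over all probes of a gene exchanged Gstm1 for Gsta3. The calls of BP40 against control were the same 4 genes with quantile normalization, both filters on dim probes, the percentile over probes above background on all arrays, the series table, outlier spots kept and both detrending alternatives. Over these and the other scalings the BP40 to control log2 ratio ran from 1.31 to 2.11 for Gsta4, 0.82 to 2.12 for Gsta2, 0.41 to 1.56 for Gsta1 and 0.31 to 1.27 for Gstm1. Low signal over background limits Gsta1 and Gsta2, whose BP40 to control log2 ratios were 0.99 and 1.15 with normexp.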
